A study of Mus musculus with 7 samples.

Results

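Wfs1, Fibcd1, Pou3f1, Mpped1, Bok, Iyd, Spock1 and Neurod6 are genes used to mark the pyramidal neurons of the mouse hippocampus, and called Fos peaks around them were compared between kainic acid and saline. All 8 genes were found among 21887 protein-coding genes of a RefSeq table for GRCm38.p6, the assembly behind mm10, the build that the submitters' processing notes name. A window around a gene is its annotated span plus 50 kb on both sides. The 8 windows covered 1453.967 kb and held 74 of the 111142 peaks of the series. Peaks that overlapped by at least 1 bp were merged into 52 regions, out of 68873 in all.

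Chromatin immunoprecipitation with an antibody against Fos, followed by sequencing, was run on whole hippocampus of wild-type C57BL/6J mice aged 2 months. The 3 saline libraries came from mice given saline. The 3 kainic acid libraries came from mice given kainic acid, a glutamate receptor agonist that provokes seizures, as 2 intraperitoneal injections of 10 mg/kg with 30 min between them. These mice were taken 1 hour after the first injection, and only those with level 4 seizures were used. How many animals went into a library is not given, so the spread between libraries may be technical. Input chromatin (1 library) served no comparison here.

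Pyramidal neurons of field CA3 receive mossy fibre input from dentate granule cells and send their axons to the pyramidal neurons of CA1. Fos is made within an hour of strong firing and pairs with Jun proteins to form AP-1, a transcription factor that binds the motif TGACTCA and close variants, mostly at enhancers away from gene starts. Wfs1, Fibcd1, Pou3f1 and Mpped1 are used as markers of CA1, Bok, Iyd and Spock1 as markers of CA3, and Neurod6 as a marker of pyramidal neurons in general. Peak lists hold no RNA level, so the marker role of the genes could not be checked here. The tissue held all hippocampal cell types, so a peak near a CA1 gene need not come from CA1 cells, and fewer bound cells cannot be told apart from less binding per cell.

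The lists differed widely in length. The kainic acid lists held 15009, 63197 and 29650 peaks in replicates 1, 2 and 3, and the saline lists held 7, 3277 and 2. Saline replicates 1 and 3 could therefore show few peaks near any gene, and the comparison with saline rests mainly on replicate 2. No read totals come with the lists. A read pileup at the summit was inferred for each peak from its fold and p-value. Over the kainic acid lists its median was 22, 20 and 24 reads, and the lowest called was 12, 9 and 13 reads. A site that is missing from a list was not called there, which does not show that Fos was absent.

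Promoter sequences, from 250 bases before to 50 after an annotated start, were found in RefSeq (GRCm38.p6) for 7 of the 8 genes, all but Pou3f1. Mpped1 has 2, so there were 8 promoters. They were searched on both strands for the AP-1 motif TGACTCA, whose reverse complement is TGAGTCA, and for TGACGTCA, the cyclic AMP response element, which reads the same on both strands. The 2 motifs do not contain one another. Neither was found in any of the 8 promoters. Among 32851 promoters of the table, 5.2% held the first and 1.79% the second. Only the Spock1 promoter was overlapped by a peak, in 1 list, kainic acid replicate 2, whose peaks overlapped 10.7% of all promoters. These sequences are shown, with motif letters in capitals. The first is the Spock1 promoter (chr13:57908283-57908582, minus strand). The second is a promoter of the long noncoding RNA gene Gm33294 (chr13:57433751-57434050, plus strand), which lies within the Spock1 span and under a peak of kainic acid replicate 3. Another Gm33294 promoter under the same peak (chr13:57434174-57434473) held neither motif and is not shown. The third is the Neurod6 promoter (chr6:55681214-55681513, minus strand), shown because no list had a peak anywhere in its window.
Spock1: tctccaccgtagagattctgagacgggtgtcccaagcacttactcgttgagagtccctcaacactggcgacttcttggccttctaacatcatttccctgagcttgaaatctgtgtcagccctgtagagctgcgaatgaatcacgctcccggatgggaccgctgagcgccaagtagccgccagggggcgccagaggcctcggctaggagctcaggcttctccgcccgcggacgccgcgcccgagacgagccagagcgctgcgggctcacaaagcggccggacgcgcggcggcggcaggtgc
Gm33294: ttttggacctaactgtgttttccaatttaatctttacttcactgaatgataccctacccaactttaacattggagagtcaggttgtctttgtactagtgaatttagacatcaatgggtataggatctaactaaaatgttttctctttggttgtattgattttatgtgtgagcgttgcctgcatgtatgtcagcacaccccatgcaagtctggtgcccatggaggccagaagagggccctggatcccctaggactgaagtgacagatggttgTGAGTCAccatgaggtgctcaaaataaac
Neurod6: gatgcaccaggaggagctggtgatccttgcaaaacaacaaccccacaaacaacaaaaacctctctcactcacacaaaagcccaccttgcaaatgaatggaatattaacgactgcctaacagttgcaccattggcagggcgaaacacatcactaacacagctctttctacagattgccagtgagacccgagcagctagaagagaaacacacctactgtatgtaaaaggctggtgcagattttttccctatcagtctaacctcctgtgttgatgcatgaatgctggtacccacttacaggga

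Around the 8 genes, more Fos peaks were called after kainic acid than after saline. The windows together held 5, 49 and 19 peaks in kainic acid replicates 1, 2 and 3, and 0, 1 and 0 in saline replicates 1, 2 and 3. The groups did not overlap. On the scale of log10(number + 1) kainic acid averaged 1.26 ± 0.462 (SD, n = 3), saline averaged 0.1 ± 0.174 (SD, n = 3), and the difference was 1.16. By an exact permutation test, two-sided, p was 0.1, which is the lowest value possible with 3 libraries against 3. The lists as a whole differ in the same direction, so this count does not set the 8 genes apart.

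Gene by gene, 4 of the 8 windows (Wfs1, Fibcd1, Bok and Spock1) had more peaks in every kainic acid list than in every saline list, against 33.5% of all protein-coding genes. The reverse order occurred in 0 of the 8 and in 0% of all genes. A region found in 2 or 3 of the kainic acid lists, called a shared region here, lay in 6 of the 8 windows, against 62.7% of all genes. A region in all 3 lists lay in 4 of the 8, against 42.5%. The counts for the 8 genes thus lay near the background of all genes. By library, 4 of the 8 windows had a peak in kainic acid replicate 1 (46.3% of all genes did), 7 of the 8 in replicate 2 (77.4%) and 6 of the 8 in replicate 3 (63.3%). The windows of Wfs1, Fibcd1, Pou3f1, Mpped1, Bok and Spock1 held the shared regions, and those of Iyd and Neurod6 held none.

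**Figure D1:**
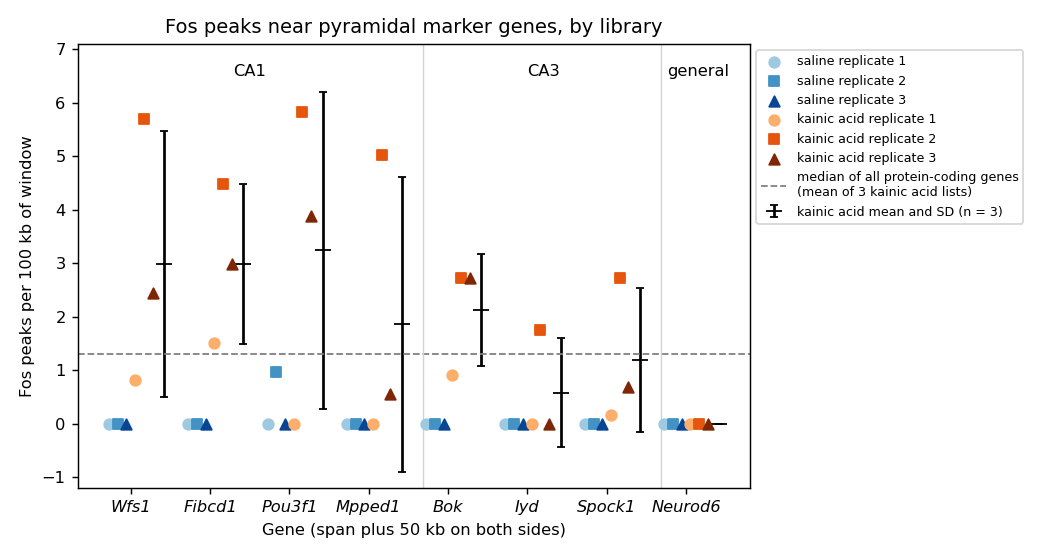
Number of called Fos peaks per 100 kb of window (vertical axis) for the 8 genes (horizontal axis), with 1 point per library, the kainic acid mean and SD (n = 3) in black and the median of all protein-coding genes, 1.3 per 100 kb, as a dashed line. Kainic acid replicate 2 is highest or level with the highest at the 7 genes that have peaks, and Pou3f1 is the only gene with a saline peak.

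Set against the length of each list, the 8 windows showed no difference from the genome that held across libraries. Peak density in the windows was 0.344, 3.37 and 1.31 per 100 kb in kainic acid replicates 1, 2 and 3, against 0.551, 2.32 and 1.09 per 100 kb of genome. The ratio of the former to the latter was 0.624, 1.45 and 1.2, a mean of 1.09 ± 0.424 (SD, n = 3). Exact 95% Poisson intervals, which cover counting error only, were 0.202 to 1.46 in replicate 1, 1.07 to 1.92 in replicate 2 and 0.722 to 1.87 in replicate 3. The ratio lay below 1 in 1 library and above 1 in 2, and its distance from 1 was smaller than the spread between libraries. In saline replicate 2 it was 0.571, from 1 peak. Windows of all protein-coding genes, pooled in the same way, held 0.71, 3.45 and 1.5 peaks per 100 kb, above the 8 windows in each kainic acid library. As a mean over genes, the 8 genes had 0.423, 3.53 and 1.66 per 100 kb, against 0.657, 3.39 and 1.43 for all genes. The direction thus depends on the reference and on how genes of unequal length are weighted.

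Among the CA1 genes, Fibcd1, a membrane receptor with a fibrinogen domain that binds acetylated sugars such as chitin, was the only one of the 8 with 2 regions in all 3 kainic acid lists. Its window (chromosome 2, 31763290 to 31896964) held 2, 6 and 4 peaks in kainic acid replicates 1, 2 and 3 and none in saline. Every kainic acid library was above every saline library there. Density was 1.5, 4.49 and 2.99 per 100 kb, a mean of 2.99 ± 1.5 (SD, n = 3), higher than at 78.1% of protein-coding genes. Its 4 shared regions amounted to 2.99 per 100 kb, against a median of 0.872 over all genes.

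The strongest region of the Fibcd1 window by rank (chromosome 2, 31803116 to 31803821) lay 9.8 kb downstream of the gene and inside the neighbouring kinase gene Abl1. Ranks of the authors' fold are given as percentiles within a list, where 0 is the highest fold, since folds are not scaled between lists. There the fold was 5.76, 10.8 and 5.96 in kainic acid replicates 1, 2 and 3, at percentile ranks of 19.2, 4.21 and 14.4. The inferred pileups were 23, 39 and 29 reads, and the summits of the 3 peaks lay within 39 bp of each other. The other region in all 3 lists (chromosome 2, 31769992 to 31771379) lay 42.6 kb downstream, also inside Abl1. Its rank was 77.2 in replicate 1 but 4.44 and 7.01 in replicates 2 and 3. A pair of shared regions inside Fibcd1 itself, starting at 31822530 and 31824420, were called in replicates 2 and 3 and ranked lower, at means of 65.1 and 39.5.

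Wfs1 encodes wolframin, a membrane protein of the endoplasmic reticulum. Its window (chromosome 5, 36916104 to 37038982) held 1, 7 and 3 peaks in kainic acid replicates 1, 2 and 3 and none in saline, so the groups did not overlap. Density was 0.814, 5.7 and 2.44 per 100 kb, a mean of 2.98 ± 2.49 (SD, n = 3), higher than at 78.1% of genes. All 3 shared regions lay downstream of the gene, none inside it. The 2 nearest, at 5.4 and 6.9 kb from the 3′ end, were called in replicates 2 and 3 only. At the one of best mean rank (chromosome 5, 36958903 to 36959436) the fold was 6.02 and 6.09, at ranks of 23 and 13.4, and the summits were 5 bp apart. It lay 6.9 kb from Wfs1 and nearer, at 4.1 kb, to the phosphatase subunit gene Ppp2r2c. The region in all 3 lists (chromosome 5, 36921741 to 36922428) lay 44 kb from Wfs1, inside Ppp2r2c. Its ranks were 74.1, 6.42 and 20.8 and its pileups 16, 34 and 26 reads in replicates 1, 2 and 3. A peak within Wfs1 (starting at 36979075) came from replicate 2 alone.

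Pou3f1, a POU domain transcription factor also known as Oct6 or Scip, had the highest mean density of the 8 genes, but kainic acid replicate 1 had no peak there. Its window (chromosome 4, 124607646 to 124710655) held 0, 6 and 4 peaks in kainic acid replicates 1, 2 and 3, and 0, 1 and 0 in saline. Replicate 1 was thus level with saline replicates 1 and 3 and below saline replicate 2. Density with kainic acid averaged 3.24 ± 2.97 per 100 kb (SD, n = 3) and with saline 0.324 ± 0.56 (SD, n = 3), so the kainic acid SD was as large as the difference. The region 11.4 kb from the Pou3f1 span lay nearer to the gene Utp11, at 6.2 kb. All 3 shared regions lay on the side of higher coordinates, at 4.1, 11.4 and 48.3 kb from the span.

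The last of these Pou3f1 regions (chromosome 4, 124708552 to 124709420) was the one shared region of the 8 windows with a saline peak. It lay 0.4 kb from the span of Fhl3, a LIM domain protein gene, and was also the region of best mean rank for Pou3f1, at 40.1. The fold was 8.54 in kainic acid replicate 2 and 3.49 in replicate 3, at ranks of 8.92 and 71.3, and 4.63 in saline replicate 2, at a rank of 27.3. The pileups were 43, 29 and 20 reads in that order, and the saline summit lay between the kainic acid summits. A shared region with a saline peak was present in 6.62% of all gene windows, and saline replicate 2 had a peak in 30.2% of them.

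Mpped1, a gene for a protein with a metallophosphoesterase domain, had most of its peaks in 1 library, kainic acid replicate 2. Its window (chromosome 15, 83729472 to 83908487) held 0, 9 and 1 peaks in kainic acid replicates 1, 2 and 3 and none in saline. Density averaged 1.86 ± 2.76 per 100 kb (SD, n = 3), with 5.03 in replicate 2 against 0.559 in replicate 3. Of its 9 regions, 8 were called in replicate 2 only, and 6 of those were spread along the gene with ranks between 39.1 and 89.5 and pileups of 12 to 17 reads. The shared region (chromosome 15, 83766154 to 83766573) lay 13.1 kb upstream and ranked high in both lists. Its fold was 7.2 and 6.08, its ranks were 14.5 and 13.5, and its pileups were 26 and 30 reads in replicates 2 and 3, with summits 42 bp apart.

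**Figure D2:**
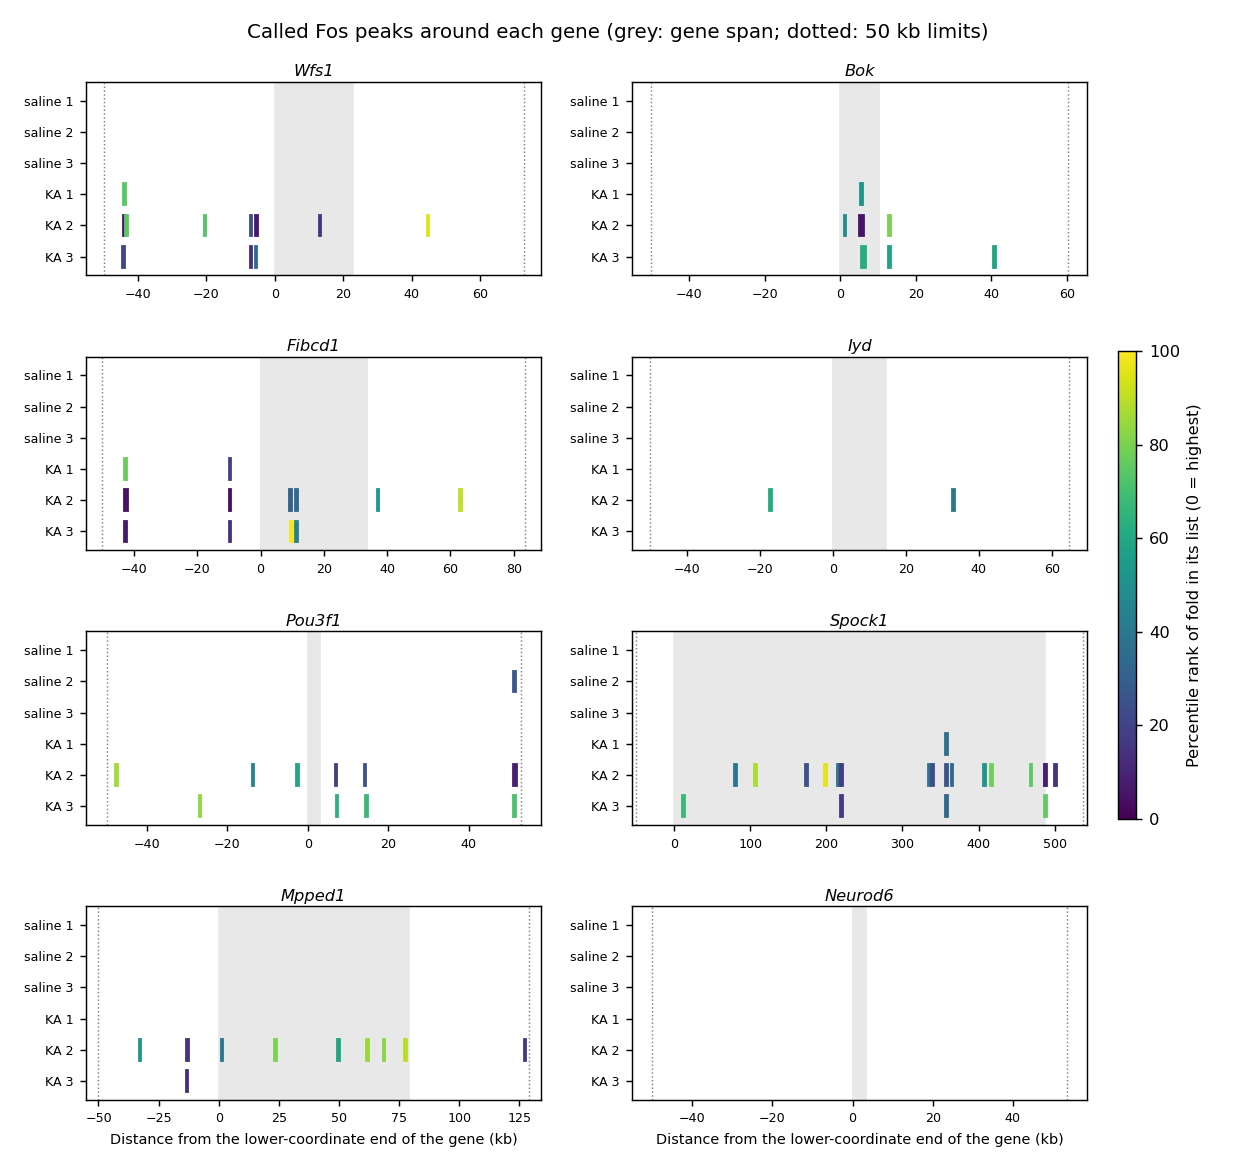
Position of every called peak in the 8 windows, in kb from the lower-coordinate end of the gene (horizontal axis), with 1 line per library (KA, kainic acid) and colour for the percentile rank of fold in its list. The lower-coordinate end is the 3′ end of Wfs1, Fibcd1, Spock1 and Neurod6, bars narrower than the drawing limit were widened to stay visible, and peaks that line up vertically in 2 or 3 kainic acid lines form the shared regions.

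Among the CA3 genes, Bok, a member of the Bcl-2 family of apoptosis regulators, had its main region within the gene. Its window (chromosome 1, 93635575 to 93745770) held 1, 3 and 3 peaks in kainic acid replicates 1, 2 and 3 and none in saline. All kainic acid libraries were above all saline libraries. Density averaged 2.12 ± 1.05 per 100 kb (SD, n = 3), higher than at 65.4% of genes. The region in all 3 lists (chromosome 1, 93690967 to 93692515) was the widest of the 52, at 1549 bp. Its fold was 4.32, 10.1 and 3.72 at ranks of 52.2, 5.2 and 62.4, and its summits were spread over 650 bp, the widest spread of any shared region here. The other shared region lay 2.8 kb downstream, in replicates 2 and 3, at a mean rank of 69.3, the lowest of the 16.

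Spock1 encodes testican-1, a proteoglycan of the extracellular matrix, and at 487.138 kb it was by far the longest of the 8 genes. Its window (chromosome 13, 57371195 to 57958332) held 1, 16 and 4 peaks in kainic acid replicates 1, 2 and 3 and none in saline. Although the groups did not overlap, the density was low, at 0.17, 2.73 and 0.681 per 100 kb. The mean of 1.19 ± 1.35 (SD, n = 3) was higher than at 47.2% of genes. Of its 17 regions, 13 were called in replicate 2 only.

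The Spock1 region in all 3 lists (chromosome 13, 57779096 to 57779498) lay within the gene, 129 kb from its start. Its fold was 4.8, 5.67 and 4.57 at ranks of 36.8, 26.6 and 33.8, the most even ranks of the 5 regions in all 3 lists. The region of best mean rank (chromosome 13, 57640838 to 57641614), also within the gene, had ranks of 17.9 and 17.3 in replicates 2 and 3 and no peak in replicate 1. Near the gene start, a shared region (chromosome 13, 57909129 to 57909600) lay 1 kb upstream, with folds of 8.64 and 3.38 in replicates 2 and 3. The peak over the promoter printed above (57908139 to 57908740) was in replicate 2 only, although its pileup of 61 reads was the highest of the 8 windows. Its summit lay 124 bp from the annotated start, and its rank was 22.2. In the Gm33294 promoter the motif began 21 bp after the start, and the summit of the replicate 3 peak lay 91 bp from that start, at a rank of 67.9.

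Iyd, an enzyme that recovers iodide from iodotyrosines, had only 2 peaks, 17.1 kb upstream and 18.4 kb downstream, both in kainic acid replicate 2. They ranked at 61.3 and 40.1, with pileups of 14 and 24 reads. The other 5 lists had none, so kainic acid replicates 1 and 3 were level with saline. Density averaged 0.582 ± 1.01 per 100 kb (SD, n = 3), higher than at 32.3% of genes. Neurod6, a helix-loop-helix transcription factor of excitatory neurons, had 0 peaks in all 6 lists across a window of 103.446 kb. No kainic acid peak was called in 22.0% of all gene windows, and in 28.9% of the 3319 windows whose length was within 2% of that of Neurod6.

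Compared as groups, the windows of the CA1 genes had 0.557, 5.2 and 2.23 peaks per 100 kb in kainic acid replicates 1, 2 and 3, and those of the CA3 genes 0.246, 2.59 and 0.862. The CA1 value was higher in 3 of 3 libraries, with a mean difference of 1.43 ± 1.15 (SD, n = 3). Without kainic acid replicate 2 the difference was 0.838. This order holds for the pooled groups and not for each gene, since the mean density was 1.86 per 100 kb at Mpped1 and 2.12 at Bok. Without Spock1 the CA3 values were 0.445, 2.22 and 1.33, and the difference was 1.33 ± 1.48, less than its SD. No test was run, because the genes are not replicates of a field and an exact sign-flip test over 3 libraries cannot go below p = 0.25. Shared regions numbered 11 at the 4 CA1 genes and 5 at the 3 CA3 genes, or 2.04 and 0.616 per 100 kb. Without Spock1 the CA3 genes had 2, or 0.89 per 100 kb. Between neighbouring genes in the order of mean density (Pou3f1, Fibcd1, Wfs1, Bok, Mpped1, Spock1, Iyd, Neurod6) the differences were smaller than the larger of the 2 SDs. Other marker genes, part of a further list counted below, did not show a clear CA1 excess. Mean density was 1.23, 1.68, 1.24 and 3.17 per 100 kb at the CA1 genes Man1a, Dcn, Ccn3 and Crym. At the CA3 genes Grik4, Cpne4, Nectin3, Coch, Cdh24 and Col6a1 it was 5.44, 1.41, 1.11, 0.882, 3.01 and 2.27. Whether the order depends on the genes chosen was not tested.

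Most regions of the 8 windows were called in 1 kainic acid list. Of the 52 regions, 5 were in all 3 kainic acid lists, 11 in 2 and 36 in 1, so 30.8% were shared. Most regions of the genome were not shared either, since 26862 of the 68873 merged regions were. All 16 shared regions had peaks in both replicates 2 and 3, as did 93.3% of the 26862 shared regions of the genome. Of the member peaks, 5 of 5 in replicate 1, 16 of 49 in replicate 2 (32.7%) and 16 of 19 in replicate 3 (84.2%) lay in a region of another kainic acid list. Over the whole lists these shares were 94.9%, 43.9% and 87.8%. Without replicate 2, or without replicate 3, 5 shared regions were left, at Wfs1, Bok and Spock1 (1 each) and Fibcd1 (2).

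By medians, regions in 2 or 3 kainic acid lists were wider and had higher pileups than those in 1 list. Median width was 294 bp for regions in 1 list, 642 bp in 2 and 706 bp in all 3, and median pileup was 16.5, 26 and 26 reads. A merged region widens as lists are added, so part of the difference in width follows from merging. In replicate 2 the median percentile rank was 16.2 for peaks in a shared region and 52.7 for the others. Over all member peaks it was 52.2, 39.1 and 58.5 in replicates 1, 2 and 3, a mean of 49.9 ± 9.89 (SD, n = 3), next to the 50 that divides any list in equal parts. Of the 49 peaks of replicate 2, 7 were in the top 10 percent of that list by fold, as were 0 of 5 in replicate 1 and 1 of 19 in replicate 3. Mean ranks of the 16 shared regions ran from 12.6 to 69.3 with a median of 36.6.

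**Figure D3:**
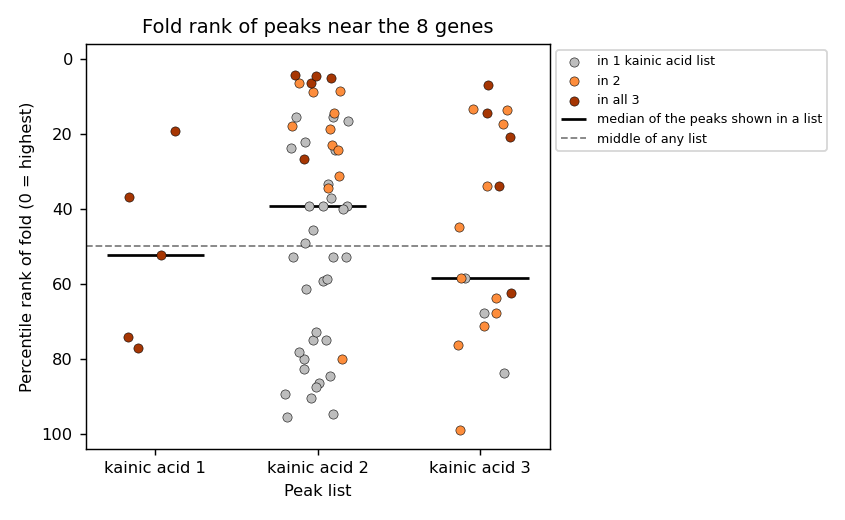
Percentile rank of fold (vertical axis, 0 for the highest fold, drawn at the top) of each peak in the 8 windows for the 3 kainic acid lists, coloured by the number of kainic acid lists in its region, with the median of the peaks shown as a bar. Medians are 52.2, 39.1 and 58.5. In kainic acid replicate 2 the median is 52.7 for the peaks found in 1 list and 16.2 for those in shared regions.

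Shared regions lay both inside and outside the marker genes. By midpoint, 5 of 16 were inside the marker gene, 31.2% (95% Clopper-Pearson interval 11 to 58.7), while the gene spans made up 45% of the windows. Both values rest on Spock1, and without it 3 of 13 were inside (23.1%), with 19.2% of the windows in spans. A further 6 lay downstream, 2 upstream and 3 beside Pou3f1, for which no strand was at hand. None of the 16 lay within 1 kb of an end of its marker gene (interval 0 to 20.6%), a zone that made up 2.2% of the windows. This 0 depends on the limit, since the midpoint of a Spock1 region lay 1.032 kb from the end. Within 2.5 kb of an end there was 1 of 16 (6.25%). The marker gene was the nearest protein-coding gene for 10 of the 16, and 3 lay inside another gene. Distance does not tell which gene a region acts on. In 12 of 16 the peak summits of the lists lay within 150 bp of each other, with a median spread of 113 bp.

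Of the 16 shared regions, 15 had no saline peak, 93.8% (95% Clopper-Pearson interval 69.8 to 99.8), against 98% of all 26862. With 7, 3277 and 2 peaks, the saline lists leave few peaks to overlap, and how far this sets the share was not tested.

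A further list of genes of pyramidal neurons, which mixes markers of CA1, CA2, CA3 and pyramidal neurons in general, was counted in the same way. Of these 18 genes, 17 (all but Pcp4) had a shared region, against 62.7% of all protein-coding genes. A region in all 3 lists lay at 13 of the 18, against 42.5%. Their windows held 0.919, 4.87 and 2.51 peaks per 100 kb in kainic acid replicates 1, 2 and 3. These densities were above those of the 8 marker windows in each library, and the difference was not tested. Windows of markers of other hippocampal cells were not empty either. Against 62.7% of all genes, a shared region was present at 3 of 5 dentate granule genes, 4 of 5 interneuron genes and 3 of 4 astrocyte genes. The same held for 2 of 4 oligodendrocyte genes, 4 of 4 microglial genes and 4 of 4 endothelial genes. Mean density with kainic acid was 2.74 ± 2.41, 1.36 ± 1.04, 1.32 ± 0.886, 3.59 ± 3.14, 2.16 ± 1.68 and 1.99 ± 1.7 peaks per 100 kb in that order (SD, n = 3), against 1.67 ± 1.55 for the 8 pyramidal marker genes. These ranges overlap widely.

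The pattern of peak density over the 6 lists, averaged over the 8 genes as log10(1 + peaks per 100 kb), was close to that of Rgs3, Ccdc60, Megf10 and Usp29, at Euclidean distances of 0.0445 to 0.0505. The median distance of all genes was 0.478, and the 8 genes themselves lay 0.145 to 0.704 from their mean.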

How the data were processed

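Fos ChIP-seq of mouse hippocampus was represented by 6 peak lists, 1 per library (3 saline, 3 kainic acid), none pooled. Per the submitters' processing notes, the tools were Trim Galore 0.6.4, Bowtie2 2.3.4.3, MACS2 and deepTools 3.5.0, and the build was mm10. Per the file contents, alignments were filtered at a mapping quality of 30. The cutoff and the control of the peak calling are not given in the sources used here. The deposited fold is the ratio of a peak to its local background within its library. The deposited −log10 p and −log10 q (p-value and q-value) belong to 1 library, and the deposited score is 10 times the −log10 q, rounded down. None is scaled between libraries, so folds were ranked within a list.

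Peaks overlapping a gene span extended by 50 kb were counted, and all lists were merged at 1 bp of overlap (Python 3.11.15, pandas 2.3.3, numpy 2.4.6, scipy 1.17.1). Genome density used 2722 Mb, the sum over chromosomes up to the last gene or peak. Summit pileups (k) were inferred by matching the fold to (k + 1) divided by (background + 1) and the p-value to a Poisson tail, within a tolerance of 0.001, for 63194 of 63197 peaks in the longest list. This rests on an inferred model of the calling. Merging, window counts and the solver were tested on simulated data. Group totals were compared as log10(n + 1) by an exact permutation test. Alternatives covered the −log10 q threshold, the reach, list length, merging and the libraries.

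All 8 genes are named. Regions named are the best of each gene by mean rank, those with a saline peak and those in all 3 lists within the top 10 percent by mean rank, of which there were 0. Other regions (those in all 3 lists or near gene starts, among others) were named after seeing their values. So were Pcp4 and the CA1 and CA3 genes of the further list. The members and lists were chosen with earlier results of these data known. The Pou3f1 promoter was not used here. Of the 5 genes closest in pattern to the 8, 1 is not reported here.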

Additional observations from a re-analysis of the deposited data

How the results depend on the processing

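Peak lists limit these results in depth, since the 8 windows hold 5 peaks in kainic acid replicate 1 and 1 saline peak, and 11 of the 16 shared regions were called in kainic acid replicates 2 and 3 only. The difference in log10(number + 1) kept its direction under all alternatives run, from 0.939 to 1.4 with one library left out. With −log10 q of at least 10, kainic acid replicate 1 held 0 peaks. The exact permutation p there rose from 0.1 to 0.4 at a difference of 0.7. By the same test p was 0.2 without saline replicate 1 and also without saline replicate 3, each at a difference of 1.11. Nothing in the labels says that a replicate number marks a common batch. The replicate block gave a difference of 1.16 (exact sign-flip permutation p = 0.25, the smallest that 3 pairs allow). Correlations over regions of same-numbered libraries were −0.165, −0.177 and −0.0491, but saline replicates 1 and 3 hold 7 and 2 peaks, so these values say nothing about pairing. With saline replicate 2 as the only saline list, chosen after seeing the data, the difference was 0.958.

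Shared regions numbered 6 with −log10 q of at least 10, 5 within the gene spans, 9 when all kainic acid lists were cut to equal length and 5 when all 3 lists were required. With 1 library left out they numbered 5 without kainic acid replicate 2 or replicate 3, and 16 otherwise. All 16 had peaks in both of these replicates. Within the gene spans, 3 genes had one. The share without a saline peak was 100% in those 4 settings and at a reach of 10 kb, and ran from 93.8% to 100% with one library left out. With −log10 q of at least 5 this share was 90.9%. It rests on 1 saline peak. The median fold rank moved to 37.8 with −log10 q of at least 5, where kainic acid replicate 1 held 2 peaks. With −log10 q of at least 10, where that replicate held 0, the rank was 51.1. The cause was not tested. The difference between CA1 and CA3 windows ran from 0.838 to 1.99 with one kainic acid library left out, chosen after seeing the data. Counts of shared regions at single genes moved by over 1.5 times in 30 of 72 cases, 28 of them to fewer. The 72 cases include Iyd and Neurod6, which had 0 in every setting and so could not fall. Leaving out kainic acid replicate 1 could not lower a count either, since all shared regions had peaks in replicates 2 and 3.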
